A study of Homo sapiens with 12 samples.

Results

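The transcripts of 7 genes that encode TRAF adaptors and IAP proteins were followed in HEK293T cells with and without TNFα. The genes are *TRAF1*, *TRAF2*, *TRAF3*, *TRAF5*, *BIRC2* (cIAP1), *BIRC3* (cIAP2) and *XIAP*. They were listed by name as adaptors and ubiquitin ligases of the TNF receptor complexes, with earlier results of these data known. They are 7 of the 33093 genes kept from the count table, and all 7 were among the 14383 genes with enough counts to be tested. HEK293T cells are an established line from human embryonic kidney that carries SV40 large T antigen. Its wild type (WT) cells were compared with *NFKB1* S80A cells, in which genome editing with CRISPR/Cas9 replaced serine 80 of the NF-κB subunit p50 with alanine. Each genotype was left untreated or received 10 ng/ml TNFα for 3 h, with 3 samples in each of the 4 groups. The *NFKB1* S80A cells were isolated as single cell clones, the number of clones behind the 3 samples is not given in the sources used here, and clone and genotype cannot be told apart.

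TRAF proteins are adaptors that bind the tails of TNF receptors, either directly or through TRADD. TRAF2 recruits cIAP1 and cIAP2, whose ubiquitin chains on RIPK1 build the platform for IKK activation and NF-κB. In resting cells TRAF3 joins TRAF2 and the cIAPs to the kinase NIK (MAP3K14), which is degraded, and this holds the non-canonical NF-κB pathway off. BIRC3 and TRAF1 are textbook NF-κB target genes, and XIAP is best known as a direct inhibitor of caspases.

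Total counts ran from 15624878 to 20889577 per sample. Untreated *NFKB1* S80A replicate 2 stood apart from the rest of its group. Its counts gave a chi-square per gene of 22.4 and 38.2 against the other 2 samples, which gave 8.7 against each other. Treated WT replicate 3 also stood apart, with 13.6 and 14.3 against the other 2 of its group, which gave 2.96. The TNFα responses of *TRAF3*, *BIRC3* and *BIRC2* in *NFKB1* S80A cells are also given without that *NFKB1* S80A sample. Most other values that rest on it are not. The WT responses of *TRAF2*, *BIRC2* and *XIAP* are also given without treated WT replicate 3. *NFKB1*, the edited gene, was expressed in both genotypes at 1013 ± 72.6 (WT) and 965 ± 91.5 (*NFKB1* S80A) normalised counts without TNFα (SD, n = 3), and the edit changes a codon, so the gene's level does not check the genotype labels. All 10 genes listed as expressed in HEK293 lines were detected, of which *NEFM*, a neurofilament gene, had 1774 to 2165 counts in each WT sample and 3 to 6 in each *NFKB1* S80A sample. The 8 blood cell markers summed to 26.2 to 46.6 normalised counts per sample, with *PTPRC*, *CD3E*, *MS4A1* and *HBB* at 0 in all 12, and the 3 endothelial markers to 0 to 3.11. The 4 fibroblast markers, mostly *COL1A1*, summed to 256 to 301 in WT and 115 to 146 in *NFKB1* S80A samples, a difference whose part in the genotype values was not tested.

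The only 2 of the 7 genes that rose with TNFα past the threshold were *TRAF3*, in both genotypes, and *BIRC3*, in *NFKB1* S80A cells. Their promoters are shown because they were also the only 2 of the 7 with a match to the κB consensus, the sequence bound by NF-κB dimers, in the 250 bases before to 50 after the transcript start. The sequences are from RefSeq (GRCh38.p14) and read along the gene, the capitals mark the matches, and *BIRC3* (chr11:102317234-102317483) and *TRAF3* (chr14:102777199-102777448) both lie on the plus strand.
BIRC3: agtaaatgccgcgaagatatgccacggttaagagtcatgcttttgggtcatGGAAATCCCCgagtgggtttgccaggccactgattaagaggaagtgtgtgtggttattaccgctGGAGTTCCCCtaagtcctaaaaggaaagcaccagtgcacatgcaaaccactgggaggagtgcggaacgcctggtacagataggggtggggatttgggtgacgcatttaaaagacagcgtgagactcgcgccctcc
TRAF3: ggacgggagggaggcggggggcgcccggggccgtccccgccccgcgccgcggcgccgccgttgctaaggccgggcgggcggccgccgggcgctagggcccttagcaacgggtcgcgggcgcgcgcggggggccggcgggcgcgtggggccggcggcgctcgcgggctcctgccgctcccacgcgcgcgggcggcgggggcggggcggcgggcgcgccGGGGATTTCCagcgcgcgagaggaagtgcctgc

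The *BIRC3* promoter held 2 matches that start at -199 and -135 from the transcript start, both on the strand opposite to the gene. The *TRAF3* promoter held 1 match at -33, on the strand of the gene. Read along its own strand, the *TRAF3* match and the -199 match of *BIRC3* are the same 10 bases, GGGGATTTCC. The other *BIRC3* match reads GGGGAACTCC on its strand. All 3 have A as the fifth base of the match, the position the study calls -1, and G as the fourth base. The paper assayed GGGGATTTCC and reported more p50 binding to it in S80A cells, but similar p65 binding in both genotypes. Its reporter differences between genotypes were much smaller with G than with A as the fourth base. The sites it found in genes raised further in S80A cells had A there, and those in equally expressed genes had A or G. The paper held the -1 base to be the main determinant of how S80 affects p50 binding. No match was found in the 3 RefSeq promoters of *TRAF1*, the 3 of *TRAF5*, the 3 of *XIAP*, the 2 of *BIRC2* or the 1 of *TRAF2*. Of 35116 RefSeq promoters of the same length, 5.91% held a match on either strand, as did 7.09% of 27305 genes when all promoters of a gene were counted.

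A wider window, from 1000 bases before to 200 after the start of the GENCODE canonical transcript (hg38), held a match in 3 of the 7 genes and in 23% of 12716 tested genes. It added 1 match in *TRAF2* and a second one in *TRAF3*, both downstream of the start and shown here with 10 bases on either side.
TRAF2, chr9:136886639-136886648, +123: gcacctctcaGGGAGACTCCgggccggagc
TRAF3, chr14:102777529-102777538, +80: cagcccagccGGGACTTTCCagccggcggc
The *TRAF2* match has G at -1 and the second *TRAF3* match has C, and both have A as the fourth base. The second *TRAF3* match, GGGACTTTCC, is also a sequence the paper assayed. It reported more reporter activity from this site in S80A than in WT cells after TNFα. In its binding assay the gain of p50 in S80A cells was largely lost at this site, and that of p65 was lost. A match is a description of the sequence, and no binding was measured here.

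*TRAF3*, which restrains NIK and also couples receptors to interferon signalling, was the one gene of the 7 that rose past the threshold in both genotypes. Its gene lies on the plus strand of chromosome 14 (102777449 to 102911500, GRCh38). Its normalised count, which is the count after division by a TMM-based scale of the library's size with a mean of 1, was 1455, 1508 and 1408 in untreated WT cells and 2236, 2304 and 2217 after TNFα. *NFKB1* S80A cells had 1544, 1253 and 1521 untreated and 2524, 2486 and 2302 after TNFα. Every treated sample lay above every untreated one in both genotypes, and untreated *NFKB1* S80A replicate 2 was the lowest of all 12. The rise was 1.55-fold in WT cells (95% interval 1.365 to 1.75, log2 fold change 0.63 with a standard error of 0.08, edgeR quasi-likelihood test with Benjamini-Hochberg adjusted p = 0.000881). The rise in *NFKB1* S80A cells was 1.69-fold (1.494 to 1.916, log2 fold change 0.76 with a standard error of 0.08, edgeR adjusted p = 0.00011). Without replicate 2 of the untreated *NFKB1* S80A cells, the log2 fold change there was 0.67 (edgeR adjusted p = 6.45e-05). RNA was measured in bulk, so more *TRAF3* transcript per cell and more cells with the transcript cannot be told apart.

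*BIRC3* encodes cIAP2, a ubiquitin ligase of the TNF receptor complex, and was the least abundant of the 7. It lies on the plus strand of chromosome 11 (102317484 to 102339403), 7.8 kb before *BIRC2*. The raw counts, from replicate 1 to 3, were 2, 10 and 9 in untreated WT cells and 17, 23 and 17 after TNFα. *NFKB1* S80A cells gave 8, 2 and 3 counts untreated and 29, 13 and 20 after TNFα. Treated samples lay above untreated ones in both genotypes, with no overlap. The normalised count was 6.77 ± 4.07 untreated and 19.0 ± 3.26 treated in WT cells, and 4.14 ± 2.84 and 21.0 ± 5.46 in *NFKB1* S80A cells (SD, n = 3).

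The *BIRC3* rise was 4.92-fold in *NFKB1* S80A cells (95% interval 2.472 to 9.78, log2 fold change 2.30 with a standard error of 0.46, edgeR adjusted p = 0.022). It was 2.74-fold in WT cells (1.454 to 5.163, log2 fold change 1.45 with a standard error of 0.43), where the edgeR adjusted p of 0.283 missed the threshold and the unadjusted p was 0.00416. A pass in one genotype and not in the other does not show that the responses differed, and the interaction of genotype and TNFα for *BIRC3* was 0.84 on the log2 scale (95% interval -0.59 to 2.27, edgeR adjusted p = 0.911). Leaving out 1 sample gave interactions of 0.56 to 1.57, the highest without untreated *NFKB1* S80A replicate 1, and none passed. The counts behind these folds were small. They summed to 21 untreated and 57 treated in WT cells, a ratio of 2.76 (exact 95% interval 1.65 to 4.8), and to 13 and 62 in *NFKB1* S80A cells, a ratio of 5.06 (2.76 to 10.0). Those intervals cover counting error only.

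The call in *NFKB1* S80A cells depended on single samples. Without untreated *NFKB1* S80A replicate 2 the *BIRC3* log2 fold change was 2.08 (edgeR adjusted p = 0.061), and without replicate 3 it was 2.01 (edgeR adjusted p = 0.141). Without the treated *NFKB1* S80A replicate 1 it was 2.09 (edgeR adjusted p = 0.135), and without replicate 3 it was 2.29 (edgeR adjusted p = 0.0578). In the other 8 fits that left out 1 sample *BIRC3* passed, with the highest log2 fold change, 3.02, without untreated *NFKB1* S80A replicate 1. In a fit to only the 6 *NFKB1* S80A samples it did not pass (edgeR adjusted p = 0.0876). With the response averaged over both genotypes, a contrast added after the data were seen, *BIRC3* rose 3.67-fold (2.297 to 5.865, edgeR adjusted p = 0.00318) and passed whichever 1 of the 12 samples was left out. *TRAF3* was the other of the 2 genes of the 7 that passed in that contrast, which called 2.17% of all tested genes. An antisense long non-coding RNA shares 126 exon bases with *BIRC3*, and whether the counting used the read strand is not given in the sources used here.

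**Figure D1:**
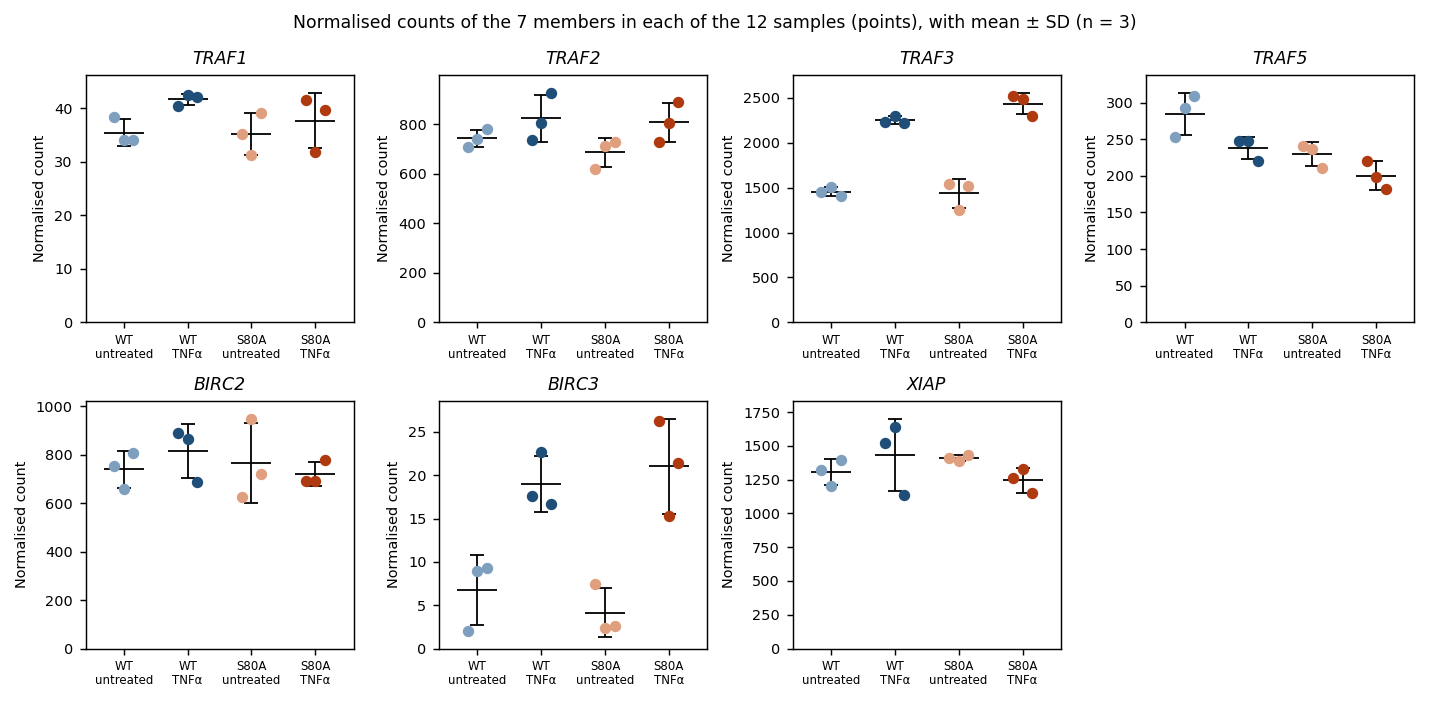
Normalised counts (vertical axis, from 0) of the 7 genes in each of the 12 samples (points), with the group mean and SD (bars, n = 3). The treated points of *TRAF3* (2217 to 2524) and *BIRC3* (15.3 to 26.2) lie above their untreated points in both genotypes, while the groups of *BIRC2* overlap throughout.

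*TRAF1* lacks the RING domain of the other TRAFs and works as a partner of TRAF2. Its normalised count was 38.3, 33.99 and 34.03 in untreated WT cells and 40.48, 42.47 and 42.09 after TNFα. The *NFKB1* S80A samples had 35.21, 31.24 and 39.07 untreated and 41.59, 31.85 and 39.7 treated. The WT groups did not overlap and the *NFKB1* S80A groups did. The log2 fold change was 0.23 in WT (standard error 0.18, edgeR adjusted p = 0.997) and 0.10 (standard error 0.18, edgeR adjusted p = 0.904) in *NFKB1* S80A cells. The 95% intervals of the folds ran from 0.906 to 1.53 and from 0.821 to 1.4.

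*TRAF2*, the adaptor that brings the cIAPs to the receptor, had 709.2, 738.9 and 778.7 normalised counts in untreated WT cells and 736.9, 805.9 and 925.9 after TNFα. The *NFKB1* S80A samples held 618.1, 711.2 and 726.6 untreated and 728.7, 803.4 and 887.4 treated. The treated *NFKB1* S80A samples all lay above the untreated ones, the closest pair at 728.7 and 726.6, and the WT groups overlapped. The log2 fold change was 0.23 in *NFKB1* S80A cells (95% interval 0.01 to 0.46, unadjusted p = 0.0418 and adjusted p = 0.5 in edgeR) and 0.15 in WT cells (-0.07 to 0.37, edgeR adjusted p = 0.997). Without treated WT replicate 3 the WT value was 0.05.

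*TRAF5*, a relative of TRAF2 that can take part of its role at some receptors, had 252.6, 292.5 and 308.4 normalised counts in untreated WT cells and 247.0, 246.9 and 220.2 after TNFα. Its counts in *NFKB1* S80A cells were 240.9, 236.7 and 211.0 untreated and 220.6, 198.2 and 182.4 treated. The 3 untreated WT samples were the highest of the 12, and 2 of the treated *NFKB1* S80A samples were the lowest. The log2 fold change with TNFα was -0.26 in WT cells (95% interval -0.50 to -0.01, unadjusted p = 0.0396 and adjusted p = 0.78 in edgeR) and -0.19 in *NFKB1* S80A cells (-0.44 to 0.06, edgeR adjusted p = 0.654), so neither passed.

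*BIRC2* encodes cIAP1, the ligase that is present before stimulation, and lies on the same chromosome as *BIRC3* with 1 annotated gene between them (102347211 to 102378670, plus strand). Its normalised counts in WT cells were 751.6, 657.5 and 808.6 untreated and 891.6, 864.2 and 688.1 treated. Those in *NFKB1* S80A cells were 627.4, 946.7 and 721.4 untreated and 689.9, 692.5 and 779.0 treated. The groups overlapped in both genotypes, and the highest value of the 12 was that of untreated *NFKB1* S80A replicate 2. The log2 fold change with TNFα was 0.14 in WT cells (95% interval -0.16 to 0.44, edgeR adjusted p = 0.997), against -0.08 in *NFKB1* S80A cells (-0.39 to 0.22, edgeR adjusted p = 0.887), and without that sample the second value was 0.09. Without treated WT replicate 3 the WT value was 0.25.

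*XIAP*, the caspase inhibitor on chromosome X, had 1323, 1205 and 1393 normalised counts in untreated WT cells and 1522, 1641 and 1133 after TNFα. The *NFKB1* S80A samples held 1410, 1389 and 1433 untreated and 1261, 1331 and 1148 treated. The treated WT samples were spread over the whole range of the 12, whereas the treated *NFKB1* S80A samples all lay below their untreated ones. The log2 fold change was 0.13 in WT cells (95% interval -0.11 to 0.38, edgeR adjusted p = 0.997), against -0.18 in *NFKB1* S80A cells (-0.43 to 0.07, edgeR adjusted p = 0.671). The interaction was -0.31 (95% interval -0.66 to 0.04, unadjusted p = 0.0771 and adjusted p = 0.911 in edgeR). Without treated WT replicate 3 the WT log2 fold change was 0.27 and the interaction -0.45. *BIRC8*, a near-copy of *XIAP* on chromosome 19, had 0 counts in all samples.

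Counted together, 1 of the 7 genes passed for TNFα in WT cells, where 0.688% of all tested genes passed, and 2 of 7 passed in *NFKB1* S80A cells, where 1.26% did. All of these were rises, against 0.577% and 0.966% of tested genes that rose. Groups did not overlap for 4 of the 7 in WT cells (*TRAF1*, *TRAF3* and *BIRC3* higher and *TRAF5* lower, against 12.7% of tested genes, 6.07% higher and 6.62% lower). They also did not overlap for 4 of 7 in *NFKB1* S80A cells (*TRAF2*, *TRAF3* and *BIRC3* higher and *XIAP* lower, against 14.4%, 6.81% higher and 7.61% lower). *TRAF3* and *BIRC3* were the genes common to both sets of 4. The median log2 fold change of the 7 was 0.15 in WT and 0.10 in *NFKB1* S80A cells, against -5.17e-05 and -0.00188 for all tested genes. By unadjusted edgeR p under 0.05, 3 of the 7 passed in WT cells (*TRAF3*, *TRAF5* and *BIRC3*, against 5.97% of tested genes) and 3 in *NFKB1* S80A cells (*TRAF2*, *TRAF3* and *BIRC3*, against 9.59%).

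**Figure D2:**
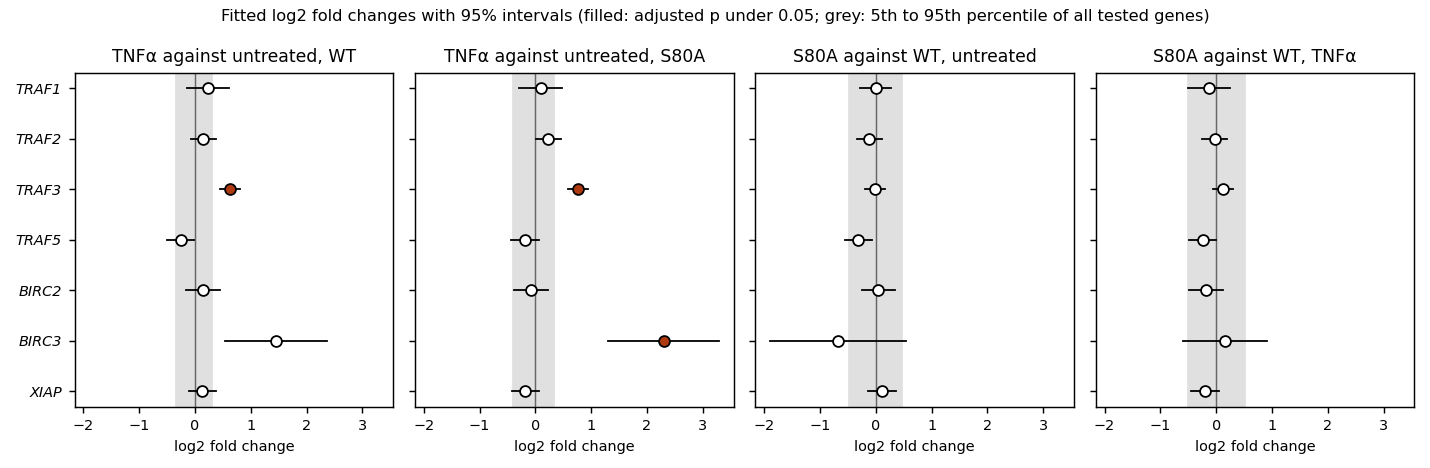
Fitted log2 fold changes (horizontal axis) of the 7 genes with 95% intervals in the 4 comparisons, filled where the edgeR adjusted p is under 0.05, with the 5th to 95th percentile of all tested genes in grey. *TRAF3* (0.63 and 0.76) is filled in both TNFα panels, *BIRC3* (2.30) in the *NFKB1* S80A panel alone, and no point is filled in the 2 genotype panels. The *TRAF1* interval between untreated genotypes rests on a very small fold change and may be too narrow.

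Between the genotypes none of the 7 genes passed, either untreated (6.26% of all tested genes passed) or with TNFα (7.36%). By unadjusted edgeR p under 0.05, 1 of 7 did untreated, against 19.7% of tested genes, and 0 of 7 with TNFα, against 22.3%. DESeq2 also called 0 of the 7 in both. For *TRAF3* the log2 difference, *NFKB1* S80A minus WT, was -0.02 untreated (95% interval -0.20 to 0.16) and 0.11 with TNFα (-0.06 to 0.29). For *BIRC3* it was -0.68 untreated (-1.90 to 0.54) and 0.16 with TNFα (-0.59 to 0.92), at 2 to 29 counts per sample. Without 1 sample the untreated *BIRC3* difference ran from -1.40 (without *NFKB1* S80A replicate 1) to -0.40 and did not pass. The other genes ranged from -0.31 (*TRAF5*) to 0.11 (*XIAP*) untreated and from -0.25 (*TRAF5*) to -0.03 (*TRAF2*) with TNFα.

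*TRAF5* was the gene with an unadjusted pass. In untreated cells every *NFKB1* S80A sample (211.0 to 240.9) lay below every WT sample (252.6 to 308.4), the only one of the 7 without overlap, against 25% of all tested genes. The log2 difference was -0.31 (95% interval -0.56 to -0.07, unadjusted p = 0.016 and adjusted p = 0.137 in edgeR). With TNFα it was -0.25 (-0.50 to 0.00, edgeR adjusted p = 0.234), and 1 pair of samples overlapped, at 220.6 and 220.2. Averaged over both treatments, *TRAF5* was 0.824-fold in *NFKB1* S80A cells (0.7304 to 0.9305, edgeR adjusted p = 0.0299), in a contrast added after the data were seen that called 16.7% of all tested genes. The 1 call among 7 genes is near that background.

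This averaged call was lost when any 1 of 7 samples was left out, with edgeR adjusted p-values of 0.0614 to 0.0809. Those samples were untreated WT replicates 2 and 3, treated WT replicates 1 and 2, untreated *NFKB1* S80A replicate 3 and treated *NFKB1* S80A replicates 2 and 3. The *TRAF5* log2 difference without them lay between -0.27 and -0.25. *XIAP* passed with TNFα in 1 such fit, without treated WT replicate 3, which held the lowest normalised *XIAP* count of all 12 samples (log2 difference -0.34, edgeR adjusted p = 0.0285).

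The responses to TNFα did not differ between the genotypes past the threshold for any of the 7 genes by the edgeR interaction test or by DESeq2. That test called 0 of the 14383 genes, and 520 (3.62%) had an unadjusted edgeR p under 0.05, none of the 7 among them. The interaction of *TRAF3* was 0.13 on the log2 scale (95% interval -0.12 to 0.38), and those of *TRAF1*, *TRAF2*, *TRAF5* and *BIRC2* were -0.14, 0.09, 0.07 and -0.22.

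Levels were compared between genes per kilobase of the GENCODE canonical transcript. In untreated WT cells *TRAF2* was highest at 328 ± 15.4 normalised counts per kb, followed by *BIRC2* (196 ± 20.3), *TRAF3* (187 ± 6.44), *XIAP* (153 ± 11.1), *TRAF5* (71.6 ± 7.23), *TRAF1* (8.15 ± 0.569) and *BIRC3* (0.984 ± 0.592; SD, n = 3). The neighbours *BIRC2* and *TRAF3* overlapped in their samples, and the other neighbours did not. After TNFα in WT cells *TRAF3* (288.5 ± 5.88) stood above *BIRC2* (216 ± 29.3) with no overlap, behind *TRAF2* (363 ± 42.2), and *BIRC2* overlapped *XIAP* (167 ± 31.0).

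The order was alike in *NFKB1* S80A cells. Untreated, *TRAF2* led at 302 ± 25.9 per kb, and *BIRC2* (203 ± 43.6), *TRAF3* (184 ± 20.7) and *XIAP* (165 ± 2.60) overlapped one another in turn. With TNFα, *TRAF3* reached 312 ± 15.2 and overlapped *TRAF2* (356 ± 35.0), and *BIRC2* (191 ± 13.5) stood below both. *TRAF5*, *TRAF1* and *BIRC3* kept the last 3 places in all 4 groups, *BIRC3* at 0.602 ± 0.413 untreated and 3.06 ± 0.793 treated.

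Relative levels within the pair of cIAPs and between partner TRAFs were computed in each sample. *BIRC3* made up 0.505 ± 0.312% of the per-kb total of *BIRC2* and *BIRC3* in untreated WT cells and 1.27 ± 0.177% after TNFα, and 0.326 ± 0.276% and 1.57 ± 0.427% in *NFKB1* S80A cells. The treated samples lay above the untreated ones, and the highest share in any sample was 2.04%. The ratio of *TRAF3* to *TRAF2* per kb was 0.571 ± 0.0399 untreated and 0.802 ± 0.096 treated in WT cells, and 0.615 ± 0.107 and 0.886 ± 0.127 in *NFKB1* S80A cells. These ratios are descriptions and carry no test.

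**Figure D3:**
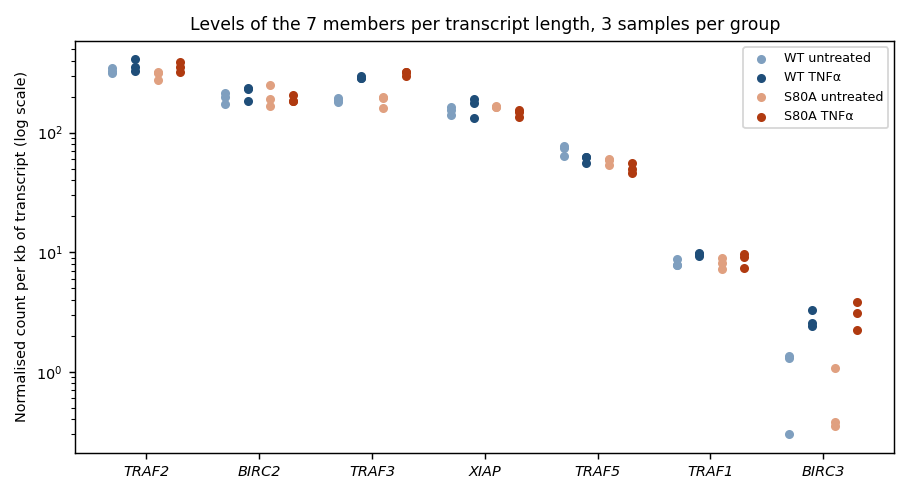
Normalised counts per kilobase of canonical transcript (vertical axis, log scale) of the 7 genes in the 12 samples (points, coloured by group). *TRAF2*, *BIRC2*, *TRAF3* and *XIAP* lie between 132 and 409 in all samples, *TRAF5* between 45.9 and 77.6, *TRAF1* between 7.18 and 9.76, and *BIRC3* between 0.301 and 3.81.

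The 3 genes whose centred log2 CPM profile over the 12 samples was closest to that of *TRAF3*, of 13061 genes with a mean of at least 1 CPM, were *PATL1*, *SIX5* and *MFHAS1*, with root mean square differences of 0.0962, 0.0996 and 0.103. *SIX5* had log2 fold changes of 0.62 in WT and 0.82 in *NFKB1* S80A cells, and *MFHAS1* of 0.61 and 0.74, close to those of *TRAF3*. *PATL1* had 0.45 and 0.62 and missed the threshold in WT cells (edgeR adjusted p = 0.102). These genes were chosen by closeness over the same samples, so like fold changes follow from the choice. For *BIRC3* the closest were *BCL3* (0.387), *IKZF3* (0.457) and *FAM167A* (0.458). *BCL3* rose by 1.90 (WT) and 2.06 (edited cells) on the log2 scale (edgeR adjusted p = 0.000445 and 0.0001), whereas *IKZF3* (1.35 and 1.38) and *FAM167A* (1.27 and 1.36) had smaller fold changes. *FAM167A* missed the threshold in WT cells (edgeR adjusted p = 0.0961).

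Of the 6 other genes of the TRAF family and its interactors, none passed for TNFα in either genotype. That threshold was passed by 0.688% of all tested genes in WT and 1.26% in *NFKB1* S80A cells. *TRAF4* was lower in *NFKB1* S80A cells, with 977 to 1043 normalised counts in untreated WT and 694.5 to 721 in untreated *NFKB1* S80A samples. The log2 difference was -0.51 untreated (standard error 0.08, edgeR adjusted p = 0.00135) and -0.32 with TNFα (standard error 0.08, edgeR adjusted p = 0.0225). Between genotypes the threshold was passed by 6.26% of all tested genes untreated and 7.36% with TNFα. *TRAF6*, the adaptor of interleukin-1 and Toll-like receptors, and *TRAF7*, *TRAF3IP1*, *TRAF3IP2* and *TRAF3IP3* did not pass in any of the 4 comparisons. Of the 5 other IAP genes, *BIRC5* and *BIRC6* were expressed enough to be tested and neither passed in those 4, *BIRC7* and *BIRC8* had 0 counts, and *NAIP* had at most 6 counts in a sample. Averaged over both treatments, *BIRC5* (survivin) was lower in *NFKB1* S80A cells, with a log2 difference of -0.25 (edgeR adjusted p = 0.0356). That contrast was added after the data were seen and called 16.7% of all tested genes.

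A rise with TNFα passed the threshold for 0.577% of all tested genes in WT and 0.966% in *NFKB1* S80A cells. Among 15 tested partners of the TRAFs and cIAPs at the receptor complexes, 1 rose with TNFα in both genotypes. This was *TNFAIP3*, which encodes the ubiquitin-editing enzyme A20, from 110 ± 13.9 to 966 ± 128 normalised counts in WT cells (log2 fold change 3.14, standard error 0.14, edgeR adjusted p = 6.56e-09). In the edited cells it went from 106 ± 14.7 to 1550 ± 201 (3.86, standard error 0.15, edgeR adjusted p = 4.76e-10). *IKBKE*, a kinase held by TANK and TRAF complexes, was lower in *NFKB1* S80A cells, with 56 to 73 counts in untreated WT and 4 to 19 in untreated *NFKB1* S80A samples (log2 difference -2.73, edgeR adjusted p = 0.00181) and a log2 difference of -2.17 with TNFα (edgeR adjusted p = 0.00678). With TNFα, *TNFAIP3* was higher in the edited cells (log2 difference 0.68, edgeR adjusted p = 0.00422), and no others of the 15 passed between untreated or between treated genotypes. Of all tested genes, 6.26% passed between untreated and 7.36% between treated genotypes. The receptor *TNFRSF1A*, *TRADD* and *RIPK1* did not pass in any of the 4 comparisons. Averaged over both treatments *RIPK1* was higher in *NFKB1* S80A cells by 0.21 on the log2 scale (edgeR adjusted p = 0.0217), in the contrast added after the data were seen that called 16.7% of all tested genes.

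In the non-canonical arm that TRAF2, TRAF3 and the cIAPs restrain, 2 of 8 tested genes rose with TNFα in both genotypes. The share of all tested genes that rose was 0.577% in WT and 0.966% in *NFKB1* S80A cells. These are RNA levels, and whether the non-canonical pathway itself was active was not tested. *NFKB2*, the p100 precursor, rose by 2.16 (WT) and 2.25 (edited cells) on the log2 scale (edgeR adjusted p = 1.09e-09 and 4.76e-10), and *RELB*, the partner of p52, by 5.15 and 5.47 (1.58e-11 and 6.55e-12). *MAP3K14*, which encodes NIK itself, did not pass, with 153.2 to 159.2 normalised counts in untreated and 173.3 to 186 in treated WT cells. Its *NFKB1* S80A groups overlapped, at 94.91 to 156.3 untreated and 111.6 to 156.9 treated. *CD40*, a receptor that binds TRAF2 and TRAF3, was lower in *NFKB1* S80A cells, with a log2 difference of -1.18 untreated and -1.06 with TNFα (edgeR adjusted p = 0.00167 and 0.00406). With TNFα, *CHUK* (IKKα) was lower as well (-0.35, edgeR adjusted p = 0.046) and *RELB* higher (0.57, edgeR adjusted p = 0.00401), so 0 of 8 were higher and 1 lower untreated, and 1 higher and 2 lower with TNFα. Between genotypes 6.26% of all tested genes passed untreated and 7.36% with TNFα. With 8 genes, 1 call untreated is near that share.

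Of 5 tested receptors whose tails recruit TRAFs, *TNFRSF9* (4-1BB, a receptor that binds TRAF1 and TRAF2) rose in both genotypes. It had 0 to 4 counts in each untreated sample, 43 to 72 in treated WT and 52 to 153 in treated *NFKB1* S80A samples (edgeR adjusted p = 0.000763 and 5.9e-05). Of all tested genes, 0.688% passed for TNFα in either direction in WT and 1.26% in *NFKB1* S80A cells. *TNFRSF19* fell in *NFKB1* S80A cells by 0.92 on the log2 scale (edgeR adjusted p = 0.0338), from 127 to 177 normalised counts untreated to 75.0 to 89.1 treated. The highest untreated value there, 177, was that of replicate 2, and no fit without that sample is given. The log2 fold change of *TNFRSF19* in WT cells was -0.45 (unadjusted p = 0.0296 and adjusted p = 0.708 in edgeR). Its interaction did not pass (edgeR adjusted p = 0.911). Averaged over the genotypes *TNFRSF19* fell by 0.68 (edgeR adjusted p = 0.0131), in the contrast added after the data were seen that called 2.17% of all tested genes. All 8 tested IAP antagonists and caspase pathway genes, *CASP8*, *CASP9*, *DIABLO* and *HTRA2* among them, failed the threshold in each of the 4 comparisons. Those 4 called 0.688% (TNFα in WT), 1.26% (TNFα in *NFKB1* S80A), 6.26% (genotypes untreated) and 7.36% (genotypes with TNFα) of all tested genes.

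**Figure D4:**
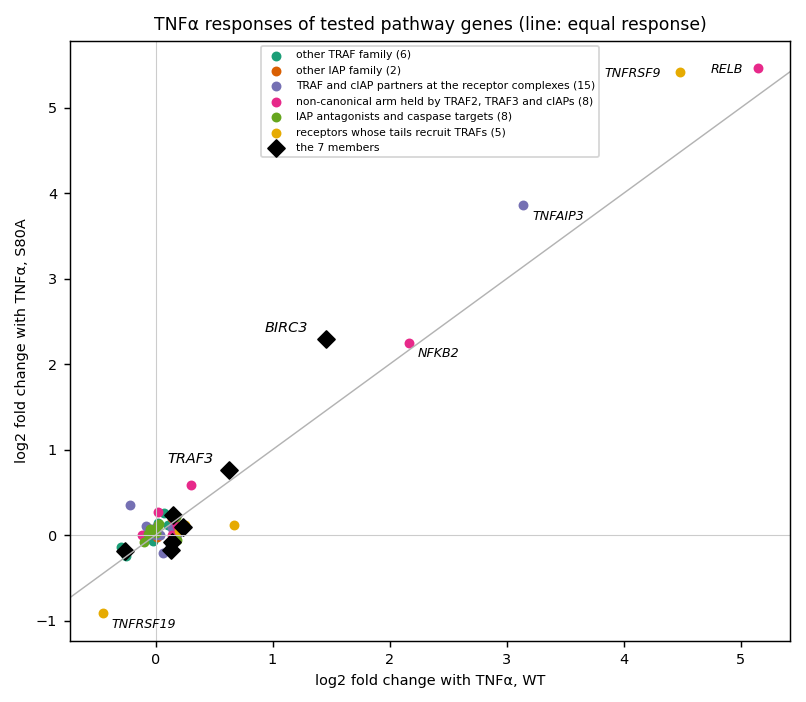
Log2 fold changes with TNFα in WT (horizontal) and *NFKB1* S80A cells (vertical) of the 7 genes (diamonds) and of the tested genes of the 6 pathway lists (circles, coloured by list), with the line of equal response. *RELB*, *TNFRSF9*, *TNFAIP3* and *NFKB2* lie farthest from the origin, *BIRC3* comes next, *TRAF3* lies at 0.63 and 0.76, and the fitted values of *TNFRSF9* rest on 0 to 4 counts per untreated sample.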

How the data were processed

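Polyadenylated RNA of 12 HEK293T samples was sequenced, and per the paper's methods the authors aligned single-end reads to GRCh38 with HISAT and counted them with HTSeq-count. Versions and counting options are not given in the sources used here. The authors deposited raw counts per gene symbol, 1 column per sample, and lists of their own fold changes and p-values, which were not used. Of 33121 rows, 28 were left out because symbols and the counts of 2 samples had been turned into dates (at most 0.233% of counts in the others). Samples were grouped by their titles.

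In R 4.3.3 with edgeR 4.0.16, genes passing filterByExpr (minimum count 10) were scaled by TMM and fitted in a quasi-likelihood model with 1 mean per group over all 12 samples. Benjamini-Hochberg adjustment ran over 14383 genes, with a threshold of 0.05. The standard error is the log2 fold change divided by the root of F. This is unstable where both are very small, as for *TRAF1* between untreated genotypes, where it gave 0.13. The other pairwise comparisons of *TRAF1* gave 0.18. In simulated data for TNFα in WT cells (14267 genes), the test found 91.5% of 200 changed genes, 83% of those set to a log2 fold change of 1, and 4.69% of calls were false. The simulation drew the spread from its trend over expression, set no log2 fold change under 1 and held no outlying sample. Its shares therefore do not apply to smaller changes or to single genes with few counts. The labels give no batch, the samples are described as independently generated, and p-values measure the spread between them. Counting error limits genes with few counts.

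Genes named are the 7 genes, genes of 6 pathway lists that passed a comparison (others are named to complete a list), the 3 genes closest in profile to each of the 7 that passed for TNFα, *NFKB1*, and markers. The genes and lists were chosen with earlier results of these data known. log2 CPM used a prior count of 2. Alternatives were DESeq2 1.42.0, scaling by its size factors or by total counts, no low-count filter, a block for the replicate number, fitting the 6 samples of a comparison alone, and leaving out each sample. Contrasts averaged over genotypes or treatments were added after the data were seen. Positions came from GENCODE v44, where 22098 of 33093 symbols matched.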

Additional observations from a re-analysis of the deposited data

How the results depend on the processing

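Over the 7 comparisons and 7 genes, 819 of 860 alternative values kept their direction and their side of the threshold. *TRAF3* passed for TNFα in both genotypes in all fits run, with log2 fold changes of 0.60 to 0.66 in WT and 0.67 to 0.81 in *NFKB1* S80A cells when 1 sample was left out. In WT cells *BIRC3* did not pass in any fit (1.05 to 1.72 without 1 sample). For TNFα in WT cells 99 genes passed, 149 with DESeq2, and 65 to 145 without 1 sample (65 without untreated WT replicate 1). In *NFKB1* S80A cells 2 of the 7 genes and 181 genes passed, 1 and 71 in the fit to only 6 samples, and 1 to 2 and 98 to 193 without 1 sample (98 without treated replicate 1, 116 without untreated replicate 3). Between untreated genotypes 900 genes passed, 456 with only 6 samples and 356 to 1039 without 1 sample (553, 356 and 432 without WT replicates 1, 2 and 3, 527 without *NFKB1* S80A replicate 3). With TNFα 1058 genes and 0 of the 7 passed, and 434 to 1646 and 0 to 1 without 1 sample (501 and 434 without treated WT replicates 1 and 2, 515, 612 and 604 without treated *NFKB1* S80A replicates 1 to 3, 1646 without untreated *NFKB1* S80A replicate 2). Averaged over treatments, 1 of the 7 passed, and 0 to 1 without 1 sample. The fit to only 6 samples has fewer samples to estimate the spread, and it could not be made for the interaction or the averaged contrasts. The cause of the other moves was not tested.

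Some directions turned, all of values that did not pass. Without 1 sample, *BIRC2* ran from -0.21 to 0.09 for TNFα in *NFKB1* S80A cells and from -0.03 to 0.12 for TNFα averaged (turned at -0.01 and -0.03), where *XIAP* ran from -0.08 to 0.05 (turned at 0.01 and 0.05). Between untreated genotypes *TRAF1* lay at -0.00 and gave 0.00 with DESeq2 or its size factors, 0.02 with total counts, and -0.09 to 0.07 without 1 sample (turned at 0.00, 0.01, 0.06 and 0.07). *TRAF3* gave 0.00 with total counts and -0.07 to 0.08 without 1 sample (turned at 0.01 and 0.08), and *BIRC2* -0.13 to 0.17 (turned at -0.03 and -0.13). With TNFα, *TRAF2* ran from -0.11 to 0.07 (turned at 0.04 and 0.07) and *BIRC3* from -0.04 to 0.33. The interaction of *TRAF5* ran from -0.01 to 0.14 and the averaged genotype difference of *XIAP* from -0.11 to 0.01.

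Same-numbered samples of different groups correlated between -0.0989 and 0.495 in their deviations from group means, with a mean of 0.118 and 9 of 18 pairs over 0.1. Pairs with different numbers had a mean of -0.0589, with 6 of 36 over 0.1. The main fit did not pair the samples by number, since the labels do not state a pairing. In 22 of 36 sample and group pairs a sample correlated best with its own number, a hint from the data and not from the design. When a block for the replicate number was added to the fit, the TNFα response had 113 (WT) and 208 (*NFKB1* S80A) genes past the threshold, 1232 and 1469 passed between genotypes untreated and treated, and the counts of the 7 genes that passed stayed 1, 2, 0 and 0.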

Other observations

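Genes outside the TNF receptor pathway differed between the genotypes among the markers of cell identity. *KRT18*, a keratin, was higher in *NFKB1* S80A cells by 0.46 on the log2 scale untreated and 0.60 with TNFα (edgeR adjusted p = 0.021 and 0.00471), and *CDH2*, N-cadherin, by 0.46 and 0.45 (edgeR adjusted p = 0.00206 and 0.00258). *COL1A1*, a collagen gene, was lower, with log2 differences of -1.20 and -1.03 (edgeR adjusted p = 3.55e-05 and 0.00015). *VIM*, vimentin, rose with TNFα in *NFKB1* S80A cells by 0.42 on the log2 scale (edgeR adjusted p = 0.0319), with 0.35 in WT cells (unadjusted p = 0.00161 and adjusted p = 0.149 in edgeR) and an interaction of 0.07 (edgeR adjusted p = 0.942), and it did not differ between the genotypes past the threshold. Untreated *NFKB1* S80A replicate 2 had the highest *VIM* value of its group (12080 normalised counts), and no fit without that sample is given. On the first principal component, which held 34.5% of the variance, the 6 WT samples lay between -21.5 and -18.8 and the 6 *NFKB1* S80A samples between 16.7 and 24.4. Clone and genotype cannot be told apart in these values.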
